A study of Mus musculus with 35 samples.

Results

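Skin that had received a single radiation dose of 25 Gy was compared between week 3 and week 4 after radiation. The comparison rests on 8 of the 35 libraries of the series, 4 from radiated skin of week 3 and 4 from radiated skin of week 4, chosen by their labels alone. All mice were female C57BL/6J, an inbred laboratory strain without an engineered allele, and were 10 weeks old when the study began. The beam was aimed at skin of the left flank and ran for 420 seconds at 3.6 Gy per min. The site was then shaved with an electric razor and skin was biopsied there. Weeks 3 and 4 come from different mice, so time and mouse change together. Control skin, labelled as such and without a stated body site, gave 4 libraries in each of the same weeks, and 3 sham mice that were not irradiated gave 1 library each. Library totals of the 8 radiated samples ran from 18450667 to 25942733 estimated counts. The 10 most abundant genes held 6.36% to 9.29% of them and mitochondrially encoded genes 1.04% to 1.31%. Expression is given as CPM, counts per 1e+06 counts of a library after TMM scaling, always in the order of replicates 1 to 4. In bulk tissue fewer cells of a type and less RNA per cell cannot be told apart. The basal keratinocyte keratins were high in all 8 libraries, with Krt5 between 1966 and 4152 CPM and Krt14 between 3169 and 10242 CPM.

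High-dose radiation injures the dividing cells of the epidermis and hair follicle, and the wound that follows draws in neutrophils and monocytes. As such a wound closes, dermal fibroblasts become activated and lay down a provisional and then a collagen-rich matrix. Fibrillar collagens are made as procollagen chains, hydroxylated and folded in the endoplasmic reticulum, trimmed outside the cell and crosslinked by lysyl oxidases. Radiation skin injury is known for moving from inflammation to fibrosis.

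The step carried 1 gene past an adjusted p of 0.05 (edgeR quasi-likelihood test, Benjamini-Hochberg adjustment) among 17975 genes tested, which is 0.00556% of them. That gene was Agtr2, the angiotensin II type 2 receptor, on chromosome X at 21484544 to 21489164 (GRCm38), and it is named after its values were seen, since its mean lies below the 5 CPM asked of other named genes. Agtr2 stood at 0.137, 0.0466, 0.229 and 0.138 CPM in week 3 and at 2.82, 2.41, 2.39 and 2.19 CPM in week 4. These levels rest on 3, 1, 6 and 3 counts in week 3 and on 66, 62, 57 and 49 counts in week 4. Agtr2 rose by 4.07 on the log2 scale (SE 0.36, adjusted p = 0.00856), and no week 3 library came near any week 4 library. Its week 3 level in radiated skin was 0.138 CPM on average, the lowest group mean of the study, and the others were 0.818 CPM in sham skin, 0.964 and 1.28 CPM in radiated skin of weeks 1 and 2, and 0.641, 0.434, 1.30 and 0.890 CPM in control skin of weeks 1 to 4. The next smallest adjusted p was 0.114, and 187 genes had an adjusted p under 0.2, of which 139 were higher and 48 lower in week 4. Without adjustment, 1215 genes (6.76%) were higher and 1086 genes (6.04%) lower in week 4 at p under 0.05, and the 4 libraries of the weeks did not overlap for 808 genes higher (4.5%) and 570 genes lower (3.17%) in week 4. DESeq2's Wald test called 507 genes, 316 higher and 191 lower, and 1 fit of all 35 libraries called 141, 91 higher and 50 lower. The call of Agtr2 was lost when radiated week 3 replicate 2 (adjusted p = 0.0586), week 4 replicate 1 (0.0615) or week 4 replicate 2 (0.0543) was left out, in 1 fit of the 16 radiated libraries (0.0519) and with the replicate number as a block (0.205). Apart from Agtr2, every gene below is given as values that did not pass the adjusted threshold in the 8 libraries, and a count of list members higher or lower in week 4 means unadjusted p under 0.05.

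The fibrillar collagens, the chains that build the load-bearing fibres of the dermis, were higher in week 4 as a group. Of 10 tested members, 9 were higher at unadjusted p under 0.05 and the same 9 had weeks that did not overlap, against 6.76% and 4.5% of all genes. Their median log2 fold change was 1.35, against -0.04 over all genes tested, of which 45.5% were above 0. DESeq2 called 8 of them and the fit of all 35 libraries 2. Col1a1, the main chain of type I collagen, stood at 3500.0, 3848, 8655 and 5171 CPM in week 3 and at 18203, 14324, 11599.6 and 14834 CPM in week 4. All 4 week 4 libraries lay above all 4 week 3 libraries, with a log2 fold change of 1.49 and an SE of 0.32 (adjusted p = 0.18). Col1a2, its partner chain, went from 2168, 2697, 3870.2 and 3197 to 10611, 8332, 5124 and 8052 CPM. Col3a1, the chain of the finer type III fibres of early repair tissue, went from 6421, 4587, 7396 and 5908 to 16171, 13075, 9691 and 13847 CPM. Neither gene's weeks overlapped, and the log2 fold changes were 1.44 (SE 0.28) and 1.13 (SE 0.25). Col5a1, a chain of the type V collagen that starts fibrils, stood at 624, 510.0, 953 and 691 CPM in week 3 and 2021, 1642, 1412 and 1857 CPM in week 4 (adjusted p = 0.13, log2 fold change 1.33 with an SE of 0.21). Col27a1 and Col24a1, fibrillar chains of low abundance in skin, had log2 fold changes of 1.37 and 1.71, again without overlap. The number of 9 members held under every one of the 18 other settings run, including the fit that left out the library with the highest hair keratin level of each week.

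**Figure D1:**
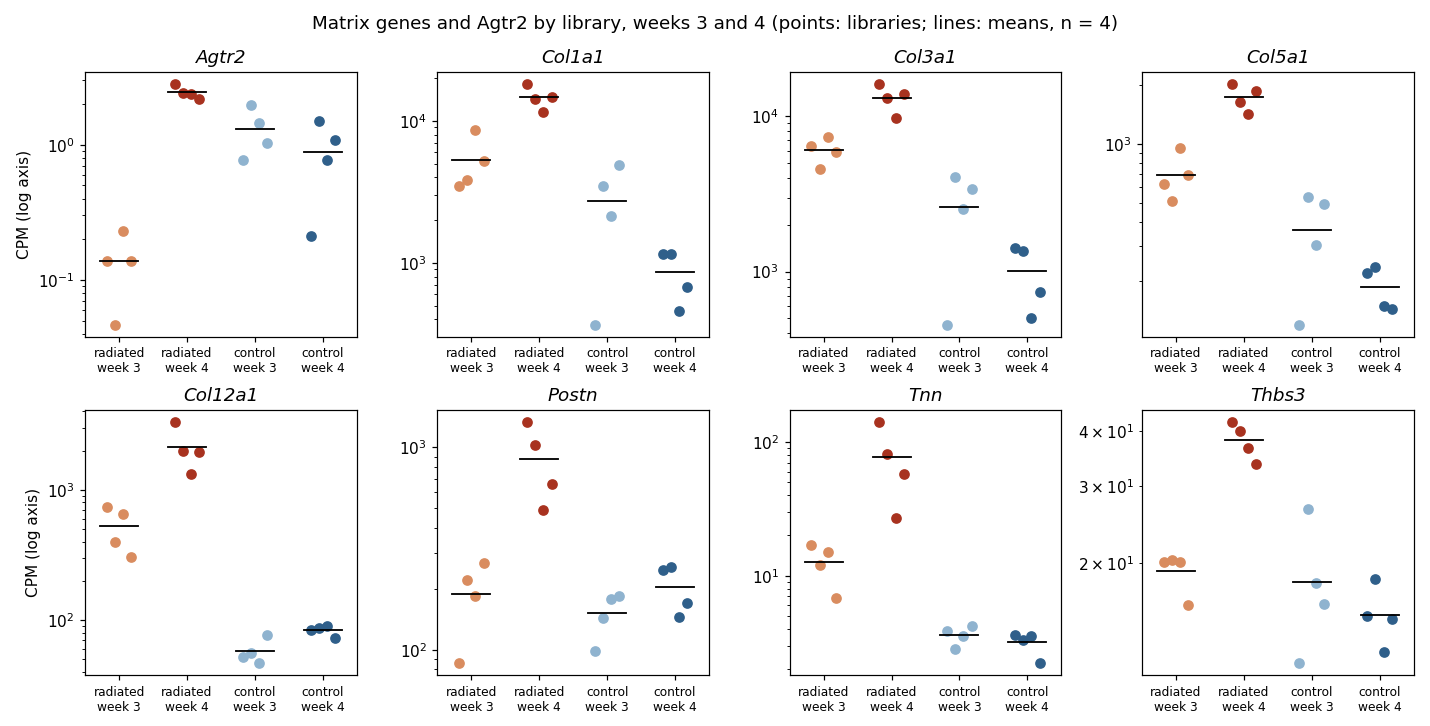
CPM on a log axis for Agtr2 and 7 matrix genes in the 4 libraries of radiated and control skin in weeks 3 and 4, with each group's mean as a line. In every panel the 4 radiated week 4 libraries lie above the 4 radiated week 3 libraries, and the radiated week 4 mean is the highest of the 4 groups.

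Promoters are shown for 3 matrix genes that were higher together and whose start is placed alike by RefSeq and GENCODE, to within 5 bases. Each is the 150 bases before the start of transcription on the gene's strand, from RefSeq's GRCm38.p6 table. Capitals mark either of 2 promoter motifs, searched on both strands and at any position, without overlap in these windows. One is TATAAA, which the TATA-binding protein recognises. The other is CCAAT, which the factor NF-Y binds. The windows are chr1:45311388-45311537 for Col3a1, chr2:27886275-27886424 for Col5a1 and chr3:54360957-54361106 for Postn, all on the plus strand.
Col3a1: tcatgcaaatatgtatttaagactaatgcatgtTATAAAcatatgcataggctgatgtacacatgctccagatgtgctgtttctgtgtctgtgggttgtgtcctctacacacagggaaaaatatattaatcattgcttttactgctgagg
Col5a1: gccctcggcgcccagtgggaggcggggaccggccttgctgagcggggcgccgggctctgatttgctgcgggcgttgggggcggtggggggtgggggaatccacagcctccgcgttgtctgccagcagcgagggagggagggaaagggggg
Postn: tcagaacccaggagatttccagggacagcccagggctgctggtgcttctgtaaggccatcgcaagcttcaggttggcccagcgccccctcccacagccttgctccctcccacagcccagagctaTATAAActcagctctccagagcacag
The windows of Col3a1 and Postn hold 1 TATAAA each and no CCAAT, and that of Col5a1 holds neither. The TATAAA of Postn lies close to the start of transcription, whereas that of Col3a1 lies towards the far end of its window. Over all 27025 genes of the table, 27.7% have CCAAT and 8.89% TATAAA in such a window. Of the fibrillar collagens, 8 have an entry, of which 3 hold CCAAT and 2 hold TATAAA.

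Other collagens and the scaffolds around the fibres were higher less uniformly. Among collagens outside the fibrillar class, 8 of 22 tested were higher and 1 was lower at unadjusted p under 0.05 (median log2 fold change 0.47). Over all genes 6.76% were higher and 6.04% lower. Col12a1, which coats fibrils and bears load at wound edges, stood at 739, 399, 649 and 303 CPM in week 3 and 3304, 1969, 1316 and 1941 CPM in week 4, a log2 fold change of 2.04 and an SE of 0.35 (adjusted p = 0.13). Every week 4 library exceeded every week 3 library. Col14a1, a related fibril-associated chain, had a log2 fold change of 1.16 (SE 0.25) and the transmembrane Col23a1 one of 1.21 (SE 0.24). In the basement membrane list, 5 of 26 were higher and none lower (median 0.32), among them the laminin chains Lamb1 (1.01, SE 0.24), Lama2 (0.98, SE 0.23) and Lama3 (0.71, SE 0.23). Col7a1, which anchors the epidermis to the dermis, ran from 96.4 to 423 CPM in week 3 and from 244 to 589.8 CPM in week 4, so its weeks overlapped. In the elastic fibre list 5 of 17 were higher and none lower (median 0.49). Fbn2, a fibrillin of developing and healing microfibrils, stood at 18.7, 18.6, 19.6 and 15.8 CPM in week 3 and 50.1, 42.4, 32.4 and 34.2 CPM in week 4 (adjusted p = 0.13, log2 fold change 1.14 with an SE of 0.17). Mfap4, a microfibril-associated protein, ran from 3.52 to 10.6 CPM and then from 15.8 to 34.0 CPM, while elastin itself (Eln) had a log2 fold change of 0.49 (SE 0.23) with overlapping weeks. Single libraries moved these counts: without week 3 replicate 3, 11 basement membrane and 12 elastic fibre genes were higher, and without week 3 replicate 1 or 2 or week 4 replicate 1 the elastic fibre count was 3.

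The list of proteoglycans, hyaluronan synthases and link proteins gave 7 of 19 members higher and none lower (median 0.29), against 6.76% of all genes higher. Of the 7, 5 were small leucine-rich proteoglycans, which bind collagen and set fibril width, and the other two were Acan, aggrecan, and Has2, a hyaluronan synthase, both named after their values were seen. Bgn, biglycan, stood at 248, 156, 649 and 209.9 CPM in week 3 and 1282, 827, 684 and 898 CPM in week 4, and only replicate 3 of week 3 approached the later week. Aspn, asporin, had a log2 fold change of 2.23 (SE 0.54) without overlap and Lum, lumican, one of 1.92 (SE 0.45) with overlap, since replicate 3 held 86.8 CPM in week 3 and 83.6 CPM in week 4. Dcn, decorin, had a log2 fold change of 0.85 (SE 0.35) and overlapping weeks.

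Matricellular proteins, which sit in the matrix and signal to cells without bearing load, were higher too, in part. Of 21 tested, 12 were higher and 1 lower at unadjusted p under 0.05, 8 without overlap, against 6.76% of all genes higher and 4.5% higher without overlap, with a median log2 fold change of 0.86. DESeq2 called 8 of them and the fit of all 35 libraries 5. Postn, periostin, a partner of collagen crosslinking in healing skin, stood at 86.0, 220.4, 183 and 267 CPM in week 3 and 1330.1, 1023, 490.4 and 659.6 CPM in week 4. Even the lowest week 4 library exceeded the highest of week 3 (adjusted p = 0.132, log2 fold change 2.22 with an SE of 0.40). Tnn, tenascin-N, went from 16.8, 12.0, 15.0 and 6.77 to 140.4, 80.7, 27.2 and 57.6 CPM (adjusted p = 0.138, log2 fold change 2.60 with an SE of 0.48). Thbs3, a thrombospondin, went from 20.1, 20.4, 20.1 and 16.1 to 41.9, 40.1, 36.6 and 33.7 CPM with little spread in either week (adjusted p = 0.114, log2 fold change 0.99 with an SE of 0.14). Tnc, tenascin-C, an early wound protein, differed from these. It was already at 4198, 2645, 6279.6 and 768 CPM in week 3, against 64.0 CPM on average in sham skin, and stood at 3177, 2655, 3887 and 5155 CPM in week 4 (adjusted p = 0.95, log2 fold change 0.11 with an SE of 0.51). Replicate 4 of week 3 was far below the other 3 libraries of that week. Without it and without the week 4 library of the highest hair keratin level the fold change was -0.26.

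Enzymes that modify and crosslink collagen were higher in part, with 8 of 30 higher and 2 lower (median 0.25), and the 8 became 3 without week 4 replicate 1 and 17 without week 3 replicate 3. Over all genes 6.76% were higher and 6.04% lower, and the 2 lower enzymes were near that share. Loxl2, a lysyl oxidase, stood at 372, 198, 318 and 195 CPM in week 3 and 605, 432, 379 and 481 CPM in week 4 (log2 fold change 0.82, SE 0.24). P4ha3, a collagen prolyl hydroxylase subunit, had a log2 fold change of 0.94 (SE 0.27), whereas Lox (0.66, SE 0.37) and the collagen chaperone Serpinh1 (0.47, SE 0.23) had overlapping weeks. Tgm2, a transglutaminase that crosslinks other matrix proteins, was lower in week 4, with 295, 291, 282 and 112 CPM in week 3 and 99.9, 117, 108 and 131 CPM in week 4, and the low value of replicate 4 made the weeks overlap. Among matrix proteases and their inhibitors 11 of 36 were higher and 4 lower (median 0.37). Mmp13, an interstitial collagenase that is nearly silent in resting skin, ran from 4.15 to 32.8 CPM in week 3 and from 47.6 to 64.2 CPM in week 4, against 0.597 CPM in sham skin. Adamts12, a secreted metalloprotease, went from 36.3, 26.1, 39.8 and 27.5 to 103, 76.3, 59.6 and 80.1 CPM (adjusted p = 0.13, log2 fold change 1.31 with an SE of 0.20), and Adam12 had a log2 fold change of 1.47 (SE 0.29). Timp1, the metalloprotease inhibitor of acute wounds, ran the other way without passing the test, from 61.9, 49.6, 176 and 19.9 CPM to 26.0, 32.3, 46.2 and 39.1 CPM. In control skin Timp1 (-3.02, adjusted p = 0.0131) and Tgm2 (-1.37, 0.0369) fell too.

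The fibroblast list was less uniform than its products, with 6 of 20 higher, none lower and a median of 0.31. Lrrc15, a membrane protein of activated fibroblasts, stood at 8.14, 5.74, 13.1 and 30.3 CPM in week 3 and 167, 89.7, 104 and 65.9 CPM in week 4 (adjusted p = 0.132, log2 fold change 2.90 with an SE of 0.52). Its sham libraries held 22.2, 564 and 326 CPM, so the week 4 level was within their range. Cdh11, a fibroblast cadherin, went from 25.1, 23.8, 56.6 and 32.6 to 198, 102, 73.4 and 87.0 CPM, and Fap, a fibroblast surface protease, had a log2 fold change of 1.02 (SE 0.25), both without overlap. Pdgfra, the receptor that marks most dermal fibroblasts, had a log2 fold change of 0.39 (SE 0.23) with overlapping weeks. Of the genes of the contractile myofibroblast, 1 of 16 was higher at unadjusted p under 0.05, against 6.76% of all genes, none was lower, and the median was 0.10. Their difference of the steps, radiated minus control, had a median of 0.48, with 4 of 16 positive at unadjusted p under 0.05, against 7.71% of all genes, and the list median in control skin was -0.43. That member was Itga11, a collagen-binding integrin (1.45, SE 0.36). Acta2, smooth muscle actin, stood at 61.6, 45.1, 71.6 and 52.8 CPM in week 3 and 57.3, 61.8, 63.8 and 63.0 CPM in week 4, and Tagln had a log2 fold change of 0.20 (SE 0.16). Of the TGF-beta and activin pathway 6 of 34 were higher and 1 lower (median 0.22). Tgfb3 had a log2 fold change of 0.69 (SE 0.21) without overlap, and Tgfb1 one of -0.55 (SE 0.37) with overlap. Without week 3 replicate 3, the counts of higher members were 10 for fibroblasts, 3 for the contractile list and 10 for this pathway, and the lowest for fibroblasts was 4, without week 3 replicate 2 or 4 or week 4 replicate 1.

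**Figure D2:**
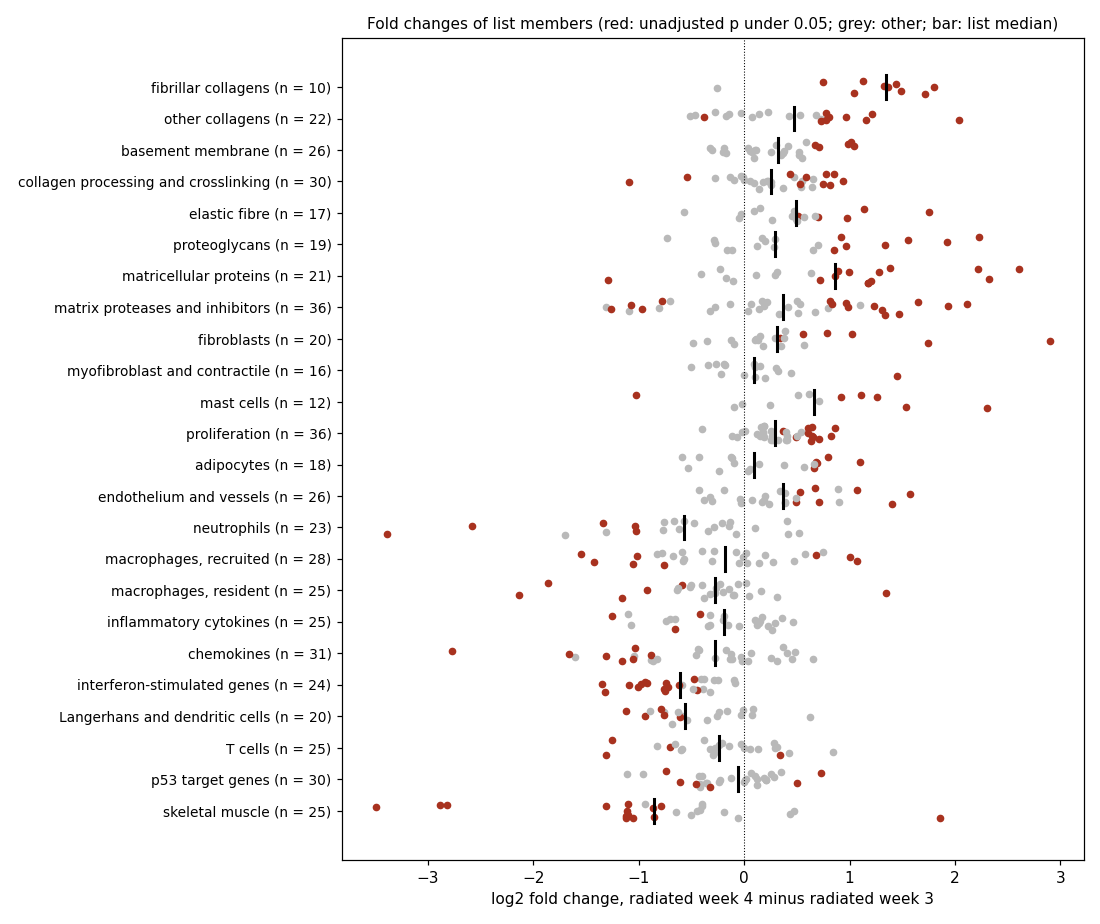
Log2 fold change of every tested gene of 24 lists, radiated week 4 minus radiated week 3, with genes at unadjusted p under 0.05 in red and the list median as a bar. The bar of the fibrillar collagens stands at 1.35, that of the interferon-stimulated genes at -0.61 and that of skeletal muscle at -0.86.

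Among the single genes closest to the threshold and lower in week 4, 4 have known roles in immunity; they were put together after their values were seen and none passed the test. Ptx3, a secreted pattern-recognition protein of innate immunity, stood at 342, 153, 115 and 74.3 CPM in week 3 and 30.8, 33.9, 39.6 and 56.5 CPM in week 4 without overlap (adjusted p = 0.18, log2 fold change -2.08 with an SE of 0.44). Cd300lf, an inhibitory receptor of myeloid cells, went from 133, 90.4, 80.7 and 74.2 to 43.3, 37.2, 29.7 and 54.7 CPM, and Nlrp1b, an inflammasome sensor, from 16.0, 20.4, 24.0 and 19.9 to 9.95, 10.1, 10.9 and 10.5 CPM. The adjusted p-values were 0.163 and 0.13. Map3k14, the kinase of the alternative NF-kappaB pathway, had a log2 fold change of -0.83 (SE 0.18) without overlap. In control skin over the same week Ptx3 (-4.45, adjusted p = 0.000295), Cd300lf (-2.21, 0.0365) and Map3k14 (-0.64, 0.0381) fell too.

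The cytokine list gave 3 of 25 members lower and none higher (median -0.19), against 6.04% of all genes lower. Csf1, the macrophage growth factor (-0.66, SE 0.19), Il1rn, the interleukin-1 receptor antagonist (-0.42, SE 0.13), and Osm, oncostatin M (-1.26, SE 0.42), were those 3. In control skin Csf1 fell too (-1.37, adjusted p = 9.42e-05), whereas Il1rn (-0.34) and Osm (-0.04) did not pass there. Il1b stood at 219.8, 175, 97.0 and 42.9 CPM in week 3 and 120.0, 65.0, 46.8 and 93.9 CPM in week 4, and its weeks overlapped. Of 31 chemokines 7 were lower, none was higher and the median was -0.28. Ccl22, a ligand for T cells and dendritic cells, went from 5.76, 8.44, 4.80 and 3.45 to 2.48, 3.38, 2.64 and 2.41 CPM without overlap. Cxcl2, a neutrophil attractant, went from 106, 52.6, 81.9 and 26.1 to 32.9, 22.9, 18.0 and 44.8 CPM with overlap, as replicate 4 of week 3 lay within the week 4 range. The chemokine count was 2 without week 4 replicate 2 and 12 without week 3 replicate 4, where the cytokine count was 7.

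Neutrophil genes were lower only in part. Of 23 tested, 5 were lower and none higher at unadjusted p under 0.05 (median -0.58), against 6.04% of all genes lower. For none of the 5 did the weeks separate. S100a9, a calcium-binding alarmin of neutrophils and stressed keratinocytes, stood at 220.2, 33.7, 39.1 and 21.9 CPM in week 3 and 154, 118, 39.1 and 137 CPM in week 4, so 3 of 4 libraries of week 4 exceeded 3 of 4 of week 3. Cd177, a neutrophil surface protein, stood at 44.9, 3.78, 5.26 and 1.34 CPM and then at 3.16, 1.47, 1.80 and 2.77 CPM, and Trem1, an amplifying receptor, at 71.8, 37.6, 22.8 and 10.4 CPM and then 21.2, 9.78, 8.25 and 16.6 CPM. Replicate 1 of week 3 was the highest library for all 3 genes. The mean log2 CPM of the list was 5.70 in that library and 2.51 to 3.94 in the other 3 of week 3, against 3.34 to 4.27 in week 4. When that library was left out, 0 members were lower at unadjusted p under 0.05 and the list median was 0.37, whereas 8 were lower without week 3 replicate 4. Both weeks stayed above control skin, where the list mean was -0.43 to 0.18 in week 3 and -0.56 to -0.17 in week 4. This mean covers the 23 members that passed the count filter in the radiated libraries, whereas 12 members passed it in control skin. The filter thus sets part of the gap to control skin.

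**Figure D3:**
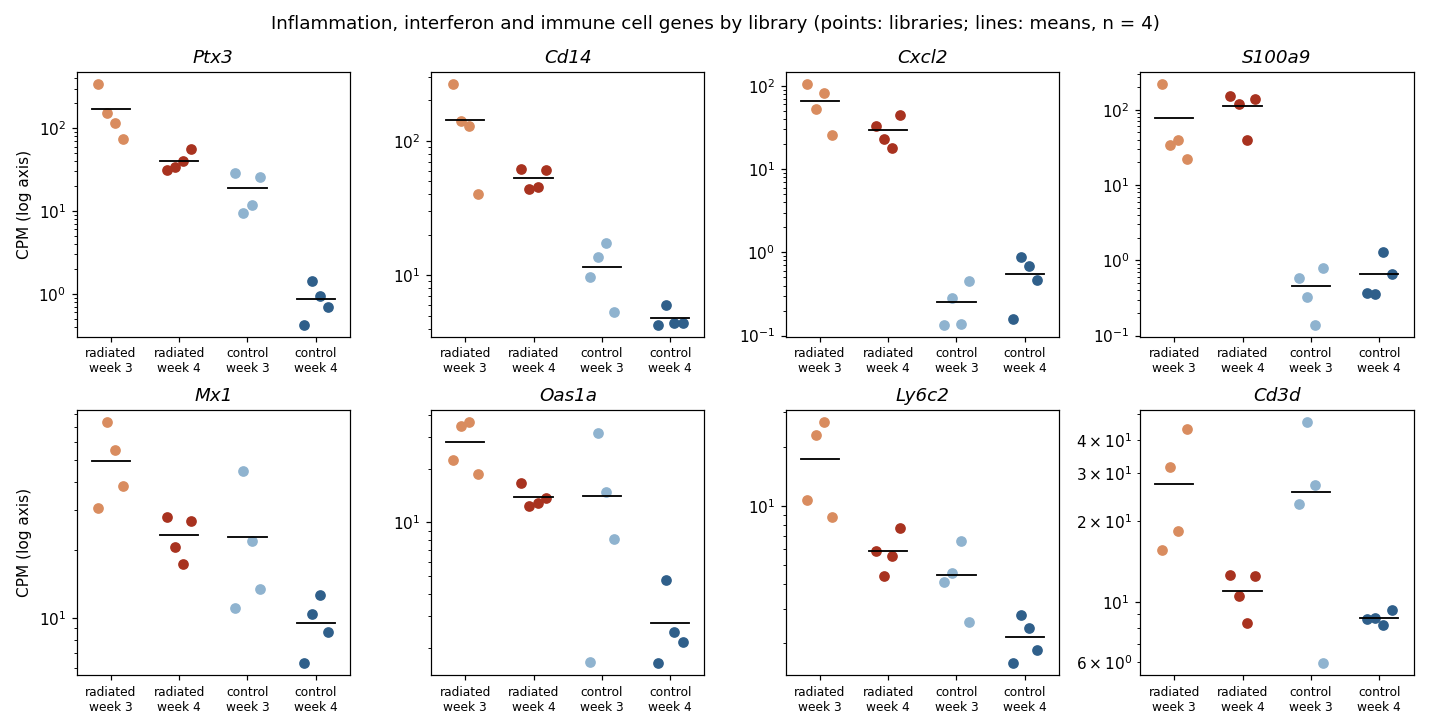
CPM on a log axis for 8 genes of inflammation, interferon response and immune cells in the 4 libraries of radiated and control skin in weeks 3 and 4, with each group's mean as a line. Ptx3, Mx1, Oas1a, Ly6c2 and Cd3d have radiated weeks that do not overlap, whereas Cd14, Cxcl2 and S100a9 do overlap.

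Monocyte and macrophage genes were mixed. In the list of recruited cells 3 of 28 were higher and 5 lower (median -0.18), and in that of resident cells 1 of 25 was higher and 5 lower (median -0.28). Over all genes 6.76% were higher and 6.04% lower. Ly6c2, of inflammatory monocytes, went from 10.7, 22.9, 26.7 and 8.80 to 5.89, 4.38, 5.57 and 7.67 CPM without overlap, and Mgl2, a lectin of dermal macrophages and dendritic cells, from 19.0, 38.4, 17.5 and 30.2 to 10.4, 12.3, 3.35 and 2.63 CPM without overlap. Cd14, the endotoxin co-receptor, went from 265, 139, 129 and 40.1 to 61.8, 43.7, 45.7 and 60.5 CPM with replicate 4 of week 3 below every week 4 library. Ccr2 and Mrc1, which mark recruited and resident cells, had log2 fold changes of -0.29 (SE 0.21) and -0.23 (SE 0.31) with overlapping weeks. The count of recruited-cell genes that were lower ran from 3, without week 3 replicate 3 or week 4 replicate 2, to 11 without week 3 replicate 4. That of resident-cell genes was 1 without week 4 replicate 4. In control skin Cd14, Ccr2, Ly6c2, Mrc1 and Mgl2 all fell, with log2 fold changes from -1.39 to -0.87.

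In the fit of the 8 radiated libraries, interferon-stimulated genes were the immune list with the largest share lower in week 4. Of 24 tested, 14 were lower and none higher at unadjusted p under 0.05, and 4 had weeks that did not overlap (median -0.61), against 6.04% of all genes lower and 3.17% lower without overlap. Oas1a, a sensor of double-stranded RNA, stood at 22.5, 34.5, 36.3 and 18.7 CPM in week 3 and 16.7, 12.3, 12.8 and 13.7 CPM in week 4 (adjusted p = 0.187, log2 fold change -1.01 with an SE of 0.23). Mx1, an antiviral GTPase, went from 30.7, 73.8, 55.7 and 38.4 to 28.0, 20.6, 17.3 and 26.9 CPM, and Stat2, a transcription factor of the type I response, from 61.3, 99.3, 128 and 59.1 to 56.8, 41.6, 52.3 and 52.7 CPM, both without overlap. Irf7 and Isg15 had log2 fold changes of -0.98 (SE 0.37) and -1.32 (SE 0.41), and Ifit1 one of -0.38 (SE 0.33), all with overlap. The same list was lower in control skin over the same week, with 9 of 24 past an adjusted p of 0.05 and a median of -1.48. The count in radiated skin ran from 8 members with the replicate block, and 9 without week 3 replicate 2 or 3, to 18 without week 3 replicate 4. In the fit of all 35 libraries it was 8 of 24, and 9 of 26 neutrophil genes were lower there.

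Lymphoid and dendritic cell genes are read against 6.04% of all genes lower and 6.76% higher. In the list of Langerhans and dendritic cells 5 of 20 were lower and none higher (median -0.57), with Cd74, the invariant chain of MHC class II, at 178, 338, 783 and 257 CPM and then 186, 205, 201 and 121 CPM and H2-Ab1 at -0.95 (log2 fold change, SE 0.34). Of 25 T cell genes 1 was higher and 3 lower (median -0.24). Cd3d, a chain of the T cell receptor complex, went from 15.6, 31.7, 18.4 and 43.9 to 12.6, 10.6, 8.34 and 12.4 CPM without overlap. Mast cell genes went the other way, with 5 of 12 higher and 1 lower (median 0.66). Cpa3, the mast cell carboxypeptidase, went from 6.86, 3.36, 4.84 and 3.87 to 16.9, 10.4, 11.6 and 15.7 CPM (adjusted p = 0.13, log2 fold change 1.53 with an SE of 0.27). The protease Mcpt4 and the receptor Mrgprb1 had log2 fold changes of 0.92 (SE 0.27) and 1.11 (SE 0.25). Cpa3 also rose in control skin (1.27, adjusted p = 0.00605), and Cd3d (-1.59, 0.031) and Cd74 (-0.52, 0.0159) fell there. Without single libraries the counts ran from 2 (without week 3 replicate 3 or week 4 replicate 3 or 4) to 7 (without week 3 replicate 1 or 4) for dendritic cells, from 1 (without week 3 replicate 2 or 3 or week 4 replicate 2, 3 or 4) to 6 (without week 3 replicate 4) for T cells and from 5 to 8 (without week 3 replicate 3) for mast cells.

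Epidermal genes varied more between libraries of a week than between weeks. None of 24 basal and suprabasal keratinocyte genes and none of 32 genes of the cornified envelope reached an unadjusted p under 0.05 in either direction, and of 32 wound keratin and alarmin genes 2 were higher. Over all genes 6.76% were higher and 6.04% lower, so the wound keratin count was near the share of higher genes. Krt10, the keratin of differentiating layers, ran from 82.8 to 5334 CPM in week 3 and from 202 to 2268 CPM in week 4. Flg, filaggrin of the cornified layer, stood at 17.5, 447, 3609 and 10277 CPM in week 3 and 2570.4, 3906, 2344 and 348 CPM in week 4. Replicate 1 of week 3 had the lowest and replicate 4 of week 3 the highest level of both genes. Krt6a and Krt6b, keratins of wounded epidermis, had log2 fold changes of 0.22 (SE 0.28) and 0.45 (SE 0.56). Proliferation genes were higher in 11 of 36 cases and lower in none (median 0.30): Mki67 stood at 100.2, 149.8, 135 and 224 CPM and then 224, 237, 278 and 210.0 CPM, and Ccna2, the cyclin of DNA replication and mitosis, went from 14.3, 14.2, 12.8 and 22.8 to 27.9, 26.9, 31.8 and 26.4 CPM without overlap. The count of 11 moved from 1 in the fit of all 35 libraries to 17 without week 3 replicate 4. In control skin the proliferation list had a median of 0.37, with 6 of 36 higher and 2 lower past an adjusted p of 0.05. Its difference of the steps had a median of -0.07. The p53 target list gave 2 of 30 higher, near the share over all genes, and 4 lower (median -0.06). Plk3, a stress kinase among the targets, went from 92.7, 78.1, 90.2 and 92.4 to 51.1, 60.1, 64.2 and 55.1 CPM, while Cdkn1a, the cell cycle inhibitor p21, had a log2 fold change of -0.23 (SE 0.23) and Mdm2 one of -0.42 (SE 0.20). Without week 3 replicate 3, 11 wound keratin and alarmin genes were higher, and without week 3 replicate 4, 3 basal or suprabasal and 3 cornified envelope genes were higher and 8 p53 targets lower.

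Hair keratins varied widely between the libraries of a week. Krt71, a keratin of the inner root sheath of growing hair, stood at 0.274, 1.96, 0 and 196 CPM in week 3 and 67.8, 1.47, 1335 and 13.0 CPM in week 4. Replicate 4 of week 3 and replicate 3 of week 4 held nearly all of it, and 0 counts in replicate 3 of week 3 allow up to 0.114 CPM (3 counts, counting error only). None of 12 tested hair shaft and inner root sheath keratins reached an unadjusted p under 0.05, although the list median was 2.48, but 10 were higher once week 3 replicate 4 was left out.

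**Figure D4:**
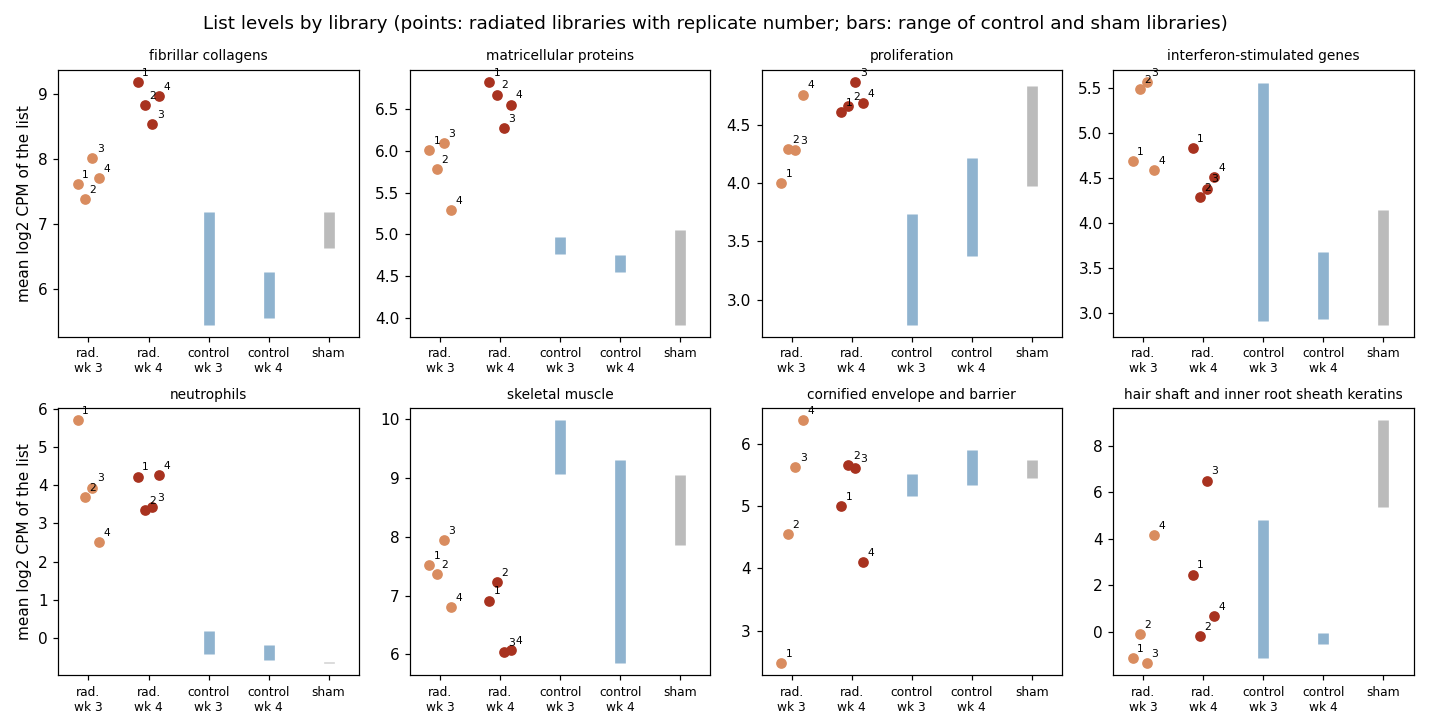
Mean log2 CPM of 8 lists, over the members tested in radiated skin, in each radiated library of weeks 3 and 4, marked with its replicate number. Bars give the range of the control and sham libraries. The fibrillar collagens separate the weeks (7.39 to 8.02 against 8.55 to 9.19), whereas neutrophil, cornified envelope and hair keratin levels spread within a week.

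Skeletal muscle genes, which in mouse skin belong to the thin muscle under the dermis, were lower in week 4. At unadjusted p under 0.05, 13 of 25 were lower and 1 higher (median -0.86), against 6.04% of all genes lower and 6.76% higher. Myh4, the fast-twitch myosin heavy chain, stood at 1179.5, 1744, 3825 and 1443 CPM in week 3 and 459, 509, 62.1 and 72.9 CPM in week 4 without overlap (adjusted p = 0.209, log2 fold change -2.88 with an SE of 0.74). Actn3, of fast fibres, went from 81.3, 61.5, 224 and 81.2 to 18.8, 33.1, 5.57 and 5.40 CPM, and Pvalb, their calcium buffer, had a log2 fold change of -3.50 (SE 0.88). The member that was higher was Mb, myoglobin, the oxygen store of oxidative fibres, at 46.6, 32.0, 36.3 and 24.2 CPM in week 3 and 148, 163, 96.7 and 93.6 CPM in week 4 (adjusted p = 0.114, log2 fold change 1.86 with an SE of 0.25). The count of 13 was 7 without week 3 replicate 3 and 18 without week 3 replicate 4. In control skin the same list had a median of -1.12, with 9 of 25 lower at unadjusted p under 0.05, of which 3 fell past an adjusted p of 0.05. The amount of muscle in a biopsy can differ, and the mean log2 CPM of the list ran from 6.81 to 7.94 in week 3 and from 6.04 to 7.24 in week 4; its part in these values was not tested. Adipocyte genes gave 5 of 18 higher and none lower (median 0.10), led by Lpl, the lipase that draws in circulating fat (0.68, SE 0.14), with Plin1 (0.66, SE 0.17) and Adipoq (0.80, SE 0.22). In control skin the adipocyte list had a median of 0.66, with 5 of 18 higher past an adjusted p of 0.05 and none lower. Its difference of the steps had a median of -0.23. Vessel genes gave 7 of 26 higher and none lower (median 0.36), to be read, like the adipocyte count, against 6.76% of all genes higher. Rgs5, of pericytes around small vessels, went from 58.4, 42.4, 83.1 and 53.8 to 225, 168, 147 and 165 CPM (adjusted p = 0.114, log2 fold change 1.57 with an SE of 0.22), whereas the endothelial Pecam1 had a log2 fold change of 0.34 (SE 0.27) with overlap. The vessel count was 4 without week 3 replicate 2 or 4 or week 4 replicate 1 or 4, and 10 without week 3 replicate 1 or 3.

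Among all genes of at least 5 CPM, those closest to the threshold with separated weeks included further names outside the lists. Higher in week 4 were Fzd2, a Wnt receptor, at 35.3, 31.6, 35.7 and 35.6 CPM and then 78.2, 63.0, 83.6 and 60.0 CPM (adjusted p = 0.114, log2 fold change 1.05 with an SE of 0.14), and C1qtnf3, a secreted C1q-related protein, at 2.29, 2.47, 2.63 and 3.45 CPM and then 146, 61.2, 13.1 and 22.2 CPM. The week 4 values of C1qtnf3 ran from 13.1 to 146 CPM, all above week 3, and its log2 fold change was 4.49 (SE 0.73). Dsel, of dermatan sulfate synthesis (1.12, SE 0.17), St8sia6, a sialyltransferase (1.45, SE 0.25), and Fmr1, an RNA-binding protein (0.86, SE 0.14), were also higher. Lower were Zbtb16, a glucocorticoid-responsive transcription factor, at 125, 141, 72.3 and 113 CPM and then 37.8, 59.8, 50.1 and 46.8 CPM, and Sik1, a salt-inducible kinase (-0.54, SE 0.12). The other lower genes were Tinf2, of the telomere shelterin complex (-0.94, SE 0.19), Epha5, an ephrin receptor (-0.77, SE 0.16), Pgs1, of cardiolipin synthesis (-0.60, SE 0.12), Gabre, a GABA receptor subunit (-1.04, SE 0.21), and Acsm2, a medium-chain acyl-CoA synthetase (-1.05, SE 0.23).

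Control skin over the same week asks what part of a step is not particular to the radiated site. In it 2110 of 17455 genes (12.1%) rose and 2181 (12.5%) fell at an adjusted p under 0.05. Scaling by total counts turned this split into 3287 and 1296, and moved the median over all genes from -0.02 to 0.13. The fibrillar collagens had a median of -1.02 there, with 1 of 10 past the threshold, which fell (Col5a2, -1.05, adjusted p = 0.0431). Resident macrophage genes fell in 19 of 24 cases. Of the 119 genes given with values, 115 could be tested in control skin and 48 passed, 31 in the direction of their radiated fold change and 17 in the other. The 119 include the 5 genes per direction of smallest p for the difference of the steps and members named because they passed it. That choice shaped the tally, so it does not measure what the steps share. Fzd2 rose there by 1.72 on the log2 scale (adjusted p = 1.87e-05), against 1.05 in radiated skin, and Epha5 (-0.68), Pgs1 (-0.72), Acsm2 (-1.06) and Plk3 (-0.35) fell. For these 5 genes, and for Ptx3, Cd300lf and Map3k14, the difference of the steps did not pass (adjusted p from 0.433 to 0.998). Hox genes, which keep a record of body position, rose past the threshold in control skin in 15 of 31 cases. In radiated skin, where 1 of 17975 genes passed at all, none of the 31 did. At unadjusted p under 0.05, 7 of them were higher there and none lower, against 6.76% of all genes higher. For none of the 31 did the difference of the steps pass (edgeR, 4 negative at unadjusted p under 0.05). No body site is stated for control skin, so week and site cannot be told apart in its step, and every difference of the steps below contains that step. The difference of the 2 steps, radiated minus control, was tested as an interaction in 1 model that held 32 libraries, those of radiated and control skin in every week. It passed an adjusted p of 0.05 for 58 genes with a positive difference (0.3% of 19338) and 35 with a negative one (0.181%). With radiated and control samples of the same week and number taken as 1 mouse, the count was 253, 180 positive and 73 negative, and with total-count scaling the split was 12 and 56, around an all-gene median of -0.20 against -0.02.

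Of 11 fibrillar collagens, 4 passed this test, all with a positive difference, and 9 did so at unadjusted p under 0.05, against 7.71% of all genes (6.66% had a negative one). They were Col1a2 (2.68, adjusted p = 0.039), Col5a1 (2.29, 0.0298), Col5a2 (2.08, 0.0397) and Col27a1 (1.58, 0.0397), given as log2 differences of the steps. Col1a2 shows what the difference holds: mean CPM went from 2983 to 8029.5 in radiated skin and from 2122 to 899 in control skin. Of 21 matricellular genes 3 passed, Postn (1.79), Tnn (2.79) and Thbs3 (1.25), and of 30 collagen-processing genes 3, P4ha3 (2.51), Loxl2 (1.74) and P4ha2 (0.94). Rgs5 (1.32) and the BMP receptor Acvr1 (0.78) passed in their lists, and so did C1qtnf3 (3.53), Fmr1 (0.96) and Agtr2 (4.59). With total-count scaling Col1a2 (adjusted p = 0.0594) and Postn (0.0696) did not pass. Leaving out 1 library ended more calls: each of the 10 collagen, matricellular and collagen-processing genes lost its call in 7 (P4ha3) to 13 (Thbs3) of 16 such fits. C1qtnf3 lost its call in 15 of the 16, Rgs5 and Acvr1 in 13, Fmr1 in 12 and Agtr2 in 5. None of the 10 passed without radiated week 4 replicate 1 or 4, control week 3 replicate 2 or control week 4 replicate 3, where 3 genes passed in all. The adjusted p of Col1a2 ran from 0.00649 to 0.108 and that of Postn from 0.0282 to 0.108 in these fits, and every direction named here stayed.

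Among the 5 genes of smallest p in each direction for the difference of the steps, the step was larger in size in control skin for all but Bicc1. Fosl1, an AP-1 subunit of migrating keratinocytes, had mean levels of 130.0 CPM in control skin of week 3 and 2.54 CPM in week 4, but of 53.4 and 32.0 CPM in radiated skin (difference 4.97, adjusted p = 0.0244). Pmepa1, a TGF-beta target and inhibitor, went from 102 to 28.5 CPM in control skin and from 152 to 208 CPM in radiated skin (difference 2.30, adjusted p = 0.00827). The amino acid transporter Slc7a5 (2.27), the galactosyltransferase B4galt5 (1.82) and the RNA-binding protein Bicc1 (1.33) also had a positive difference. Lysmd1 (-1.82), the activin receptor Acvr1b (-0.86), Hsdl1 (-0.99), Nxph3 (-2.79) and the heparan sulfate sulfotransferase Hs3st3b1 (-1.65) had a negative one. For Lysmd1 the means were 21.7 and 68.5 CPM in control skin and 19.0 and 17.0 CPM in radiated skin.

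**Figure D5:**
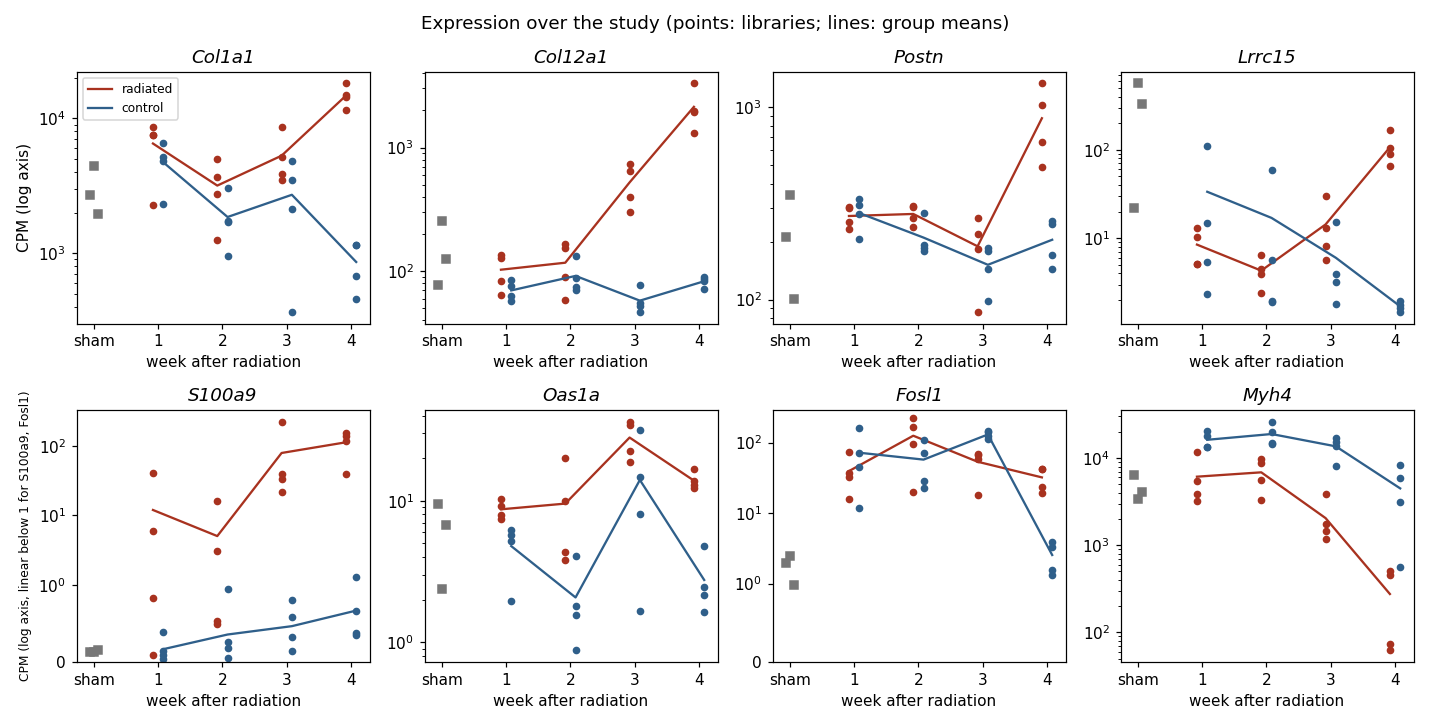
CPM in sham skin and in radiated and control skin of weeks 1 to 4 for 8 genes, with libraries as points and group means as lines, on log axes that are linear below 1 CPM for S100a9 and Fosl1. Col12a1 and Postn have their highest radiated level in week 4, S100a9 stays up in weeks 3 and 4, and Fosl1 drops in control skin between those weeks.

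Across the study, the mean week 4 level of Col1a1 and of Postn was the highest of any radiated week. Mean Col1a1 was 6513, 3177, 5293 and 14740.2 CPM in radiated skin of weeks 1 to 4, against 3014 CPM in sham skin. Mean Postn was 272, 279, 189 and 876 CPM, against 221 CPM. Mean Oas1a was 8.70, 9.54, 28.0 and 13.9 CPM, so its week 4 level was below week 3 yet above sham skin, at 6.21 CPM. These values are descriptions over groups of different mice.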

How the data were processed

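Total RNA of whole skin biopsies was sequenced, with 4 libraries in each radiated and control group and 3 from sham mice. The deposited table holds estimated counts of genes, made by the authors with kallisto 0.46.2 and Trim Galore 0.6.7 for mm10, per the submitters' processing notes, and the transcript release is not given in the sources used here. Kallisto splits reads among similar transcripts, so near-identical genes are less certain. The counts were rounded to whole numbers here. Totals ran from 17362725 to 28487795 over the 35 libraries. A count of 3, the floor, was at most 0.14 CPM in radiated libraries of week 3, and intervals or floors cover counting error only. No pair among 24 within the groups of weeks 3 and 4 held identical values or agreed within sampling noise.

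Genes were filtered with filterByExpr, scaled with TMM and tested with edgeR 4.0.16 (quasi-likelihood F test, legacy = FALSE) in R 4.3.3, with limma 3.58.1 as its base and Benjamini-Hochberg adjustment over all genes tested. Radiated week 4 and week 3 were fitted on their 8 libraries without covariates, control skin likewise, and the difference of the steps as an interaction in 32 libraries. The labels do not say that replicates came from separate mice, apart from the 19 mice of the series text, so p-values measure the spread between these samples. CPM uses TMM factors over 19813 genes and list levels use log2 CPM with a prior count of 2. List levels are means over the members that passed the filter in the 8 radiated libraries, also where control or sham skin is shown. Of 881 list symbols in 37 lists, 877 matched, and 35866 of 36106 identifiers had a position in GENCODE M21. Promoters came from RefSeq. On counts simulated for the radiated comparison (17699 genes), the test recovered 30 of 100 genes changed 2-fold and 92 of 100 changed 4-fold, with 12 false calls among 17499 unchanged genes. The changed genes were drawn only from those above a minimum mean count. Agtr2 lies below it, so recovery of genes as low as Agtr2 was not measured.

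The series text counts 19 mice for 35 samples, so mice with radiated skin gave a control sample too; taking the same week and number as 1 mouse is an inference, and same-numbered radiated and control libraries had mean correlations of their deviations of 0.05 in week 3 and -0.02 in week 4. Alternatives were DESeq2 1.42.0, other scalings, no filter, the legacy setting, other sets of libraries, a replicate block and leaving out each library. Named genes were the 12 per direction nearest the threshold with a mean of at least 5 CPM, separated weeks and a symbol, the 5 of smallest p per direction in this comparison and in the difference of the steps, and list members, at most 6 per list chosen by list position and then by p, apart from members named because they passed a test. The lists and the rule were chosen with earlier results of these data known.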

Additional observations from a re-analysis of the deposited data

Results flagged for a closer look

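Among 238 groups of 4 radiated libraries, 2 for each of 119 named genes, 13 held a library whose gap to its nearest neighbour took more of the group's range than Dixon's 95% critical value for 4 samples allows, which is 5.46% of them. Chance flags about 1 in 20 groups, but the flags were uneven between the weeks. All but 1 of the 13 lay in week 3. Replicate 1 of week 3 stood apart for Col24a1 (16.1 CPM against 6.03 to 7.01 in the other 3), Adam12 (71.4 CPM against 36 to 41.1 in the other 3), S100a9 (220 CPM against 21.9 to 39.1 in the other 3) and Cd177 (44.9 CPM against 1.34 to 5.26 in the other 3). Replicate 2 of week 3 stood apart for Fzd2 (31.6 CPM against 35.3 to 35.7 in the other 3). Replicate 3 of week 3 stood apart for Pmepa1 (239 CPM against 114 to 132 in the other 3), Lum (86.8 CPM against 36 to 43.3 in the other 3) and Actn3 (224 CPM against 61.5 to 81.3 in the other 3). Replicate 4 of week 3 stood apart for Thbs3 (16.1 CPM against 20.1 to 20.4 in the other 3), Tgm2 (112 CPM against 282 to 295 in the other 3), Ccna2 (22.8 CPM against 12.8 to 14.3 in the other 3) and Krt71 (196 CPM against 0 to 1.96 in the other 3). Replicate 3 of week 4 stood apart for Krt71 (1335 CPM against 1.47 to 67.8 in the other 3). 

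For 25 named genes the step from week 3 to week 4 differed between radiated and control skin, by an interaction test at an adjusted p under 0.05 (edgeR, adjusted p from 0.00827 to 0.0481, n = 4 in each of the 8 groups of the fit). As log2 differences of the steps, radiated minus control, the positive ones were Pmepa1 2.30, Slc7a5 2.27, B4galt5 1.82, Fosl1 4.97, Bicc1 1.33, Agtr2 4.59, P4ha3 2.51, Tnn 2.79, Col5a1 2.29, Col1a2 2.68, Loxl2 1.74, Col5a2 2.08, Postn 1.79, Col27a1 1.58, Fmr1 0.96, Acvr1 0.78, P4ha2 0.94, Thbs3 1.25, C1qtnf3 3.53 and Rgs5 1.32. The negative ones were Lysmd1 -1.82, Acvr1b -0.86, Hsdl1 -0.99, Nxph3 -2.79 and Hs3st3b1 -1.65. With total-count scaling 13 of the 25 passed. Leaving out 1 library left 3 to 24 of them: 3 (Pmepa1, Slc7a5 and Lysmd1) without radiated week 4 replicate 1 or 4, control week 3 replicate 2 or control week 4 replicate 3, 9 without control week 4 replicate 2, 10 without control week 3 replicate 4 or control week 4 replicate 4, 11 without radiated week 3 replicate 2, and 13 without radiated week 3 replicate 4 or week 4 replicate 2. None of the 25 changed direction under the alternatives run. Control skin has no stated body site, gave 15 of 31 Hox genes higher past the threshold in week 4 and had a median of -1.02 for the fibrillar collagens, with 1 of 10 past the threshold, so the difference holds both steps.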

How the results depend on the processing

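The count of 1 gene between the weeks in radiated skin stayed at 1 with DESeq2 size factors, total-count scaling, TMM without keratin genes, no filter and the legacy setting. It was 507 with DESeq2's Wald test, 141 in 1 fit of all 35 libraries, 16 in 1 fit of the 16 radiated libraries, and 0 with the replicate block. Leaving out 1 library gave counts from 0 to 65, and the 65, of which 51 were lower in week 4, came without radiated week 3 replicate 4. An alternative added after the data were seen left out the libraries with the highest hair keratin level, week 3 replicate 4 and week 4 replicate 3, and gave 9 genes. The numbers of radiated week 3 and week 4 do not pair mice: the correlations of same-numbered deviations were 0.12, 0.19, 0.10 and -0.31, and 2 of 4 libraries correlated best with their own number. The control step gave 4291 genes, 3015 to 4109 without 1 library and 2399 in the fit of all 35. The difference of the steps gave 93 genes, 51 without the filter, 420 with DESeq2, 354 from only the 16 libraries of weeks 3 and 4, 253 with the replicate block of mice, and 3 to 177 without 1 library. It was 3 without radiated week 4 replicate 1 or 4 or control week 3 replicate 2 or control week 4 replicate 3, and 177 without radiated week 3 replicate 1. The cause of these shifts was not tested.

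Of 119 named genes, 109 kept the direction of their radiated step under all 18 alternatives, and 68 passed the threshold under at least 1, of which 66 did so with DESeq2. These named genes were narrowed from a wider set after the alternatives had been run, and several of those dropped had turned direction, so the share that kept it is favourable. The 10 that turned were mostly near 0. Slc7a5 was -0.026 with total-count scaling, -0.17 without the 2 hair-rich libraries and from -0.15 to 0.12 without single libraries. Tnc was -0.26 without the 2 hair-rich libraries and from -0.23 to 0.56 without single ones. Krt10 was 0.52 and Flg 1.24 with the replicate block, 0.53 and 0.74 without the 2 hair-rich libraries, and from -0.91 to 0.69 and from -1.06 to 0.76 without single ones. Without single libraries Acvr1b ran from -0.13 to 0.013, Nxph3 from -0.48 to 0.14, Acta2 from -0.018 to 0.21, Mrc1 from -0.44 to 0.17, Krt14 from -0.031 to 0.54 and Krt71 from -0.85 to 8.97, all on the log2 scale. Low counts limit genes near the floor, such as Agtr2 in week 3, and the effect of depth on other genes was not tested.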

Other observations

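Gene families were counted by symbol in the same fit of radiated week 4 against week 3, and the late cornified envelope genes among them partly overlap the epidermal lists. Of 31 tested homeobox (Hox) genes, which keep a record of body position, 7 were higher and none lower at unadjusted p under 0.05 (median log2 fold change 0.18), against 6.76% higher over all genes. In control skin 15 of 31 Hox genes rose past an adjusted p of 0.05, with a median of 0.71. Of 76 cytosolic ribosomal protein genes 2 were higher and none lower (median 0.10), and of 34 subunits of respiratory complex I none was higher and 1 was lower (median -0.02). Late cornified envelope genes had a median of -0.48 with none of 21 at unadjusted p under 0.05, and their mean log2 CPM ran from -1.08 to 3.56 within week 3.

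Further lists are read in the same step against 6.76% of all genes higher and 6.04% lower. Of 19 sebaceous gland genes none reached an unadjusted p under 0.05 (median 0.28), of 13 melanocyte genes 1 was higher (median 0.27) and of 17 Schwann cell and nerve genes 3 were higher and 1 lower (median 0.11). Complement genes gave 3 of 17 higher and none lower (median 0.21). In the list of the secretory pathway and the unfolded protein response, through which procollagen passes, 3 of 28 were higher and 1 lower (median 0.07). Of 14 senescence-associated genes 1 was higher and none lower (median -0.09). Without week 3 replicate 1, 10 secretory pathway genes were higher, and without week 3 replicate 3, 8 complement, 5 melanocyte and 3 senescence-associated genes were. Without week 3 replicate 3 or 4, 2 sebaceous gland genes were higher.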
